A study of Mus musculus with 6 samples.

Results

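The unfolded protein response and the integrated stress response were followed through 10 genes, chosen by their place in these pathways but with earlier results of these data known: Hspa5, Hsp90b1, Pdia4, Dnajb9, Herpud1, Xbp1, Atf4, Ddit3, Trib3 and Chac1. All 10 were among the 54532 genes of the deposited table, and all 10 were among the 8882 genes that were tested. Expression was measured by RNA sequencing in macrophages labelled as coming from the mouse peritoneal cavity, plated at 2000000 cells per well and exposed for 6 hours in culture to Candida albicans, a yeast that causes invasive infection, at 1 fungal cell per macrophage. Of the 6 libraries, 3 came from wild type mice (WT, replicates 1 to 3) and 3 from mice with a knockout of progranulin, a secreted glycoprotein encoded by Grn (PGRN KO, replicates 4 to 6). The strain of both genotypes is labelled C57BL/6J. According to the study's methods, the knockout and wild type mice came from different suppliers, so genotype and source of the animals cannot be told apart. The knockout is present in every cell of the animal. The sources used here do not give the age of the animals behind these libraries or whether animals were pooled. All 6 libraries came from challenged cells, and no unchallenged cells were analysed here. The values therefore compare genotypes after challenge and do not show which genes the fungus induced.

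Proteins that enter the endoplasmic reticulum (ER) are folded there by chaperones such as BiP, the product of Hspa5. When unfolded proteins accumulate, the sensors IRE1 (Ern1), PERK (Eif2ak3) and ATF6 start the unfolded protein response: IRE1 splices Xbp1 mRNA into a form that encodes an active transcription factor, ATF6 is cleaved to release another, and PERK phosphorylates the translation factor eIF2. PERK shares that last step with the kinases HRI, PKR and GCN2, which respond to other stresses, and the common arm is called the integrated stress response. Phosphorylated eIF2 slows translation in general but favours translation of the transcription factor ATF4. Much of this control acts on splicing, cleavage and translation, which gene-level RNA values do not show. In macrophages the IRE1 arm is also known to be engaged by Toll-like receptors.

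Grn itself was at 323 to 337 FPKM (fragments scaled to gene length and library size) in the 3 WT libraries and did not exceed 0.0167 FPKM with PGRN knocked out, which matched the labels. The libraries held 15996786 to 17551619 counted fragments, and the 10 genes had between 350 and 25187 fragments each in a library. PGRN KO replicate 6 stood apart from the other 5 libraries. Its correlations with the other libraries were 0.946 to 0.972 and those among the other 5 were 0.967 to 0.993. The deviation of its genes from their means fell with gene length (Spearman's rho across genes -0.471), whereas in the other 5 libraries rho was 0.151 to 0.243. Many results below are therefore also given without it. The macrophage markers Adgre1, Csf1r, Itgam, Cd68, Lyz2, Mertk, Fcgr1 and Cd14 were all detected. Their summed level was 11620 to 12560 FPKM in WT and 10720, 10440 and 14380 FPKM in PGRN KO replicates 4, 5 and 6. Replicates 4 and 5 were thus below all WT libraries and replicate 6 above them. In the test described below, 1 of the 8 was higher and 1 lower (all tested genes: 10.4% and 13.8%). Without replicate 6, 1 was higher and 4 were lower (all tested genes: 16.2% and 25.1%).

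Published recognition sequences for the 3 arms were looked for in the promoters of the 10 genes, because they show which genes carry the letters through which an arm is known to act. The windows were taken from RefSeq on GRCm38.p6, 1 for each of the 10 genes, and ran from 250 bases before to 50 bases after the RefSeq start. Positions are counted from 0 at that start, and both strands were searched. The ER stress response element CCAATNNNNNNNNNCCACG, bound by NF-Y and ATF6, was present in the windows of Hspa5 (positions -65 to -47) and Hsp90b1 (positions -212 to -194 and, on the opposite strand, -107 to -89). Of all 32851 windows, 0.119% held it. The shorter element ATTGGNCCACG was present in the Herpud1 window at positions -52 to -42 and in 0.0365% of all windows. The C/EBP-ATF response element TGATGNAA, bound by ATF4 with a partner, was present on the opposite strand in the windows of Herpud1 (positions -112 to -105), Chac1 (positions -193 to -186) and Trib3 (positions 14 to 21), and in 3.97% of all windows. None of these letters, nor TGACGTGG (0.676% of all windows), was found in the windows of Pdia4, Dnajb9, Xbp1, Atf4 or Ddit3, which says only that they are not in this stretch. CCACG, which ends the first and the second of these elements, was present by itself in 32.8% of windows. The Dnajb9 window (chr12:44210019-44210318, minus strand) lies wholly inside the deposited gene model (44205559 to 44210326). No sequence upstream of that model was therefore searched. A window is shown for a chaperone gene that did not pass the test (Hspa5) and for both called genes with a match (Herpud1 and Chac1). They lie at chr2:34771840-34772139, plus strand, chr8:94386179-94386478, plus strand, and chr2:119350992-119351291, plus strand, in that order. Capitals mark the matches, which for the C/EBP-ATF element read as its reverse complement.
Hspa5: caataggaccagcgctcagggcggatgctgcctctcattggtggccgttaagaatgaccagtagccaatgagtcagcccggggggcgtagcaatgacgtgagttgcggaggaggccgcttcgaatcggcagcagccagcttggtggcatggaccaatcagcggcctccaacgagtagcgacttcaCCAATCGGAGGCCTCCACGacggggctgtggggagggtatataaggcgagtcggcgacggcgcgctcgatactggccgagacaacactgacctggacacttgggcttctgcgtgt
Herpud1: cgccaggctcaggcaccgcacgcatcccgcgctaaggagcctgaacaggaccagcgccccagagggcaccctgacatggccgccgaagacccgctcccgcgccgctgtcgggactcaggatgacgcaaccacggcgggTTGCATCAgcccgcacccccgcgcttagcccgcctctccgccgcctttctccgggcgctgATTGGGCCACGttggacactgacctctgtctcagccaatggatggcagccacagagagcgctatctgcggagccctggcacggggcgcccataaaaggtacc
Chac1: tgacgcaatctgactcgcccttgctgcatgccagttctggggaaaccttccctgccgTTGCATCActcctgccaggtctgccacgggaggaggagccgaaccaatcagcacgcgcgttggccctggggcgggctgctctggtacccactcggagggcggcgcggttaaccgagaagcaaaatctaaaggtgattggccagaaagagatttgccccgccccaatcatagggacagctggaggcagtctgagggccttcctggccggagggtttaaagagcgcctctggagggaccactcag

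Between genotypes, Dnajb9, Herpud1 and Chac1 fell in PGRN KO macrophages and none of the 10 genes rose. The other 7 did not pass the test (limma on log2(FPKM + 1), Benjamini-Hochberg adjustment over the 8882 genes, threshold 0.05). Dnajb9 was at 47.2% of its WT level, Chac1 at 71.3% and Herpud1 at 74.4%. Among all tested genes 13.8% were called lower and 10.4% higher in PGRN KO, so a count of 3 lower of 10 is to be read against that background. The groups did not overlap, with PGRN KO lower, for 5 of the 10 (Hsp90b1, Herpud1, Dnajb9, Atf4 and Chac1), and with PGRN KO higher for Pdia4 and Xbp1. The same held for 27.6% and 21.2% of all tested genes. The median log2 fold change of the 10 genes was -0.23, beside -0.03 for all tested genes. With an unadjusted p under 0.05, 5 were lower and 0 higher, beside 22.3% and 16.8% of all tested genes. Limma voom on the fragments recovered from the FPKM called 3 lower and 0 higher, beside 14.8% and 10.7% of all tested genes. In bulk libraries such as these, fewer cells of a type and less RNA per cell cannot be told apart.

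**Figure D1:**
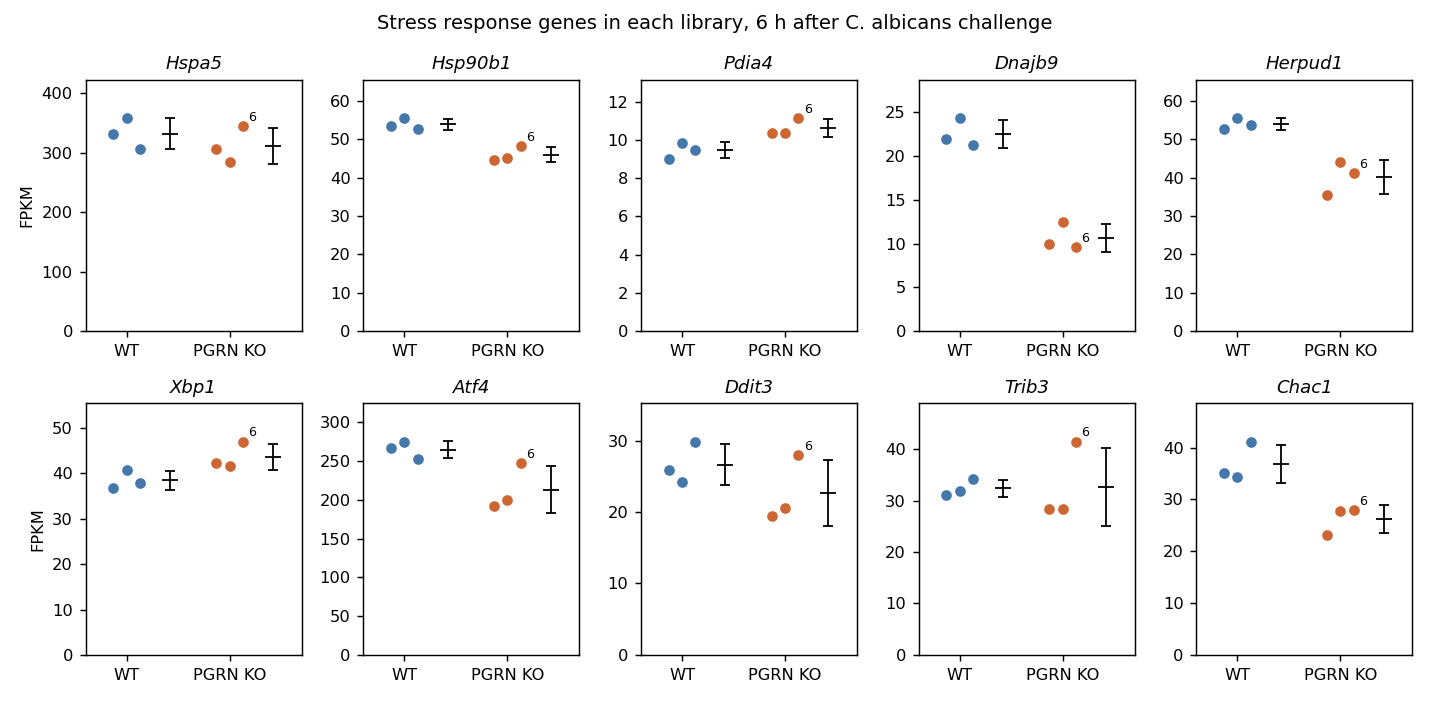
FPKM of each of the 10 genes in each of the 6 libraries (points, by replicate), with the mean and SD of each genotype as bars and each panel on its own axis. The 3 PGRN KO points lie below all WT points for Dnajb9, Herpud1, Chac1, Hsp90b1 and Atf4, above them for Pdia4 and Xbp1, and replicate 6 is above replicates 4 and 5 in 8 of the 10 panels.

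Hspa5, Hsp90b1 and Pdia4, which encode folding proteins of the ER lumen, did not pass the test. Hspa5 encodes BiP, the ER Hsp70 that also holds the sensors inactive, and lies on chromosome 2 (34771970 to 34777547, plus strand). It was at 332, 358 and 306 FPKM in WT replicates 1 to 3 and at 305, 285 and 345 FPKM in the PGRN KO libraries, replicates 4 to 6. The groups overlapped, and Hspa5 had the highest level per length of the 10 genes in every library. Its log2 fold change was -0.09 ± 0.11 (SE, 95% interval -0.36 to 0.18, adjusted p = 0.584), an interval that leaves room for a moderate change in either direction.

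Hsp90b1 encodes GRP94, the ER Hsp90, on chromosome 10 (86690209 to 86705509, minus strand). It was at 53.5, 55.5 and 52.8 FPKM in WT and at 44.7, 45.2 and 48.1 FPKM in PGRN KO. Each PGRN KO library was below each WT library, with replicate 6 the nearest to WT, and the mean was 85.3% of WT. The log2 fold change was -0.23 ± 0.08 (SE, 95% interval -0.42 to -0.03), with an unadjusted limma p of 0.0274 and an adjusted p of 0.0859.

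Pdia4 encodes ERp72, an ER protein disulfide isomerase, on chromosome 6 (47796141 to 47813430, minus strand). Its levels were 9.02, 9.86 and 9.49 FPKM in WT and 10.4, 10.4 and 11.1 FPKM in PGRN KO. The groups did not overlap and the order was opposite to that of Hsp90b1, but the difference did not pass the test (log2 fold change 0.15 ± 0.08 (SE), 95% interval -0.05 to 0.35, adjusted p = 0.220). Hsp90b1 and Pdia4 are both known targets of the ATF6 arm. The ratio of Pdia4 to Hsp90b1 in the same library, chosen after the values were seen and not tested, was 0.169, 0.178 and 0.180 in WT and 0.232, 0.229 and 0.231 in PGRN KO.

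Dnajb9 showed the largest difference of the 10. It encodes ERdj4, an ER J-domain cochaperone of BiP that helps hold IRE1 inactive and is a known target of spliced XBP1, and lies on chromosome 12 (44205559 to 44210326, minus strand). It was at 21.97, 24.3 and 21.3 FPKM in WT and at 9.92, 12.4 and 9.56 FPKM in PGRN KO. The highest PGRN KO library was well below the lowest WT library, and the gap was wider than the spread within either genotype (22.5 ± 1.59 against 10.6 ± 1.55, SD, n = 3 each). The log2 fold change was -1.02 ± 0.12 (SE, adjusted p = 0.00269), and Dnajb9 passed under all 18 alternatives, with log2 fold changes of -1.13 to -0.92 and adjusted p of 0.00015 to 0.0215. Of the 31-base words of its transcripts, 10.8% also occur in the processed pseudogene Gm6568, which had no more than 0.249 FPKM in any library.

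Dnajb9 can be set beside Hspa5, whose product it assists. The ratio of Dnajb9 to Hspa5 within a library was 0.0662, 0.0679 and 0.0697 in WT and 0.0325, 0.0436 and 0.0277 in PGRN KO. These ratios were also chosen after the values were seen and carry no test.

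Herpud1, which encodes an ER membrane protein that supports ER-associated degradation of misfolded proteins, lies on chromosome 8 (94386438 to 94395377, plus strand). It was at 52.6, 55.5 and 53.7 FPKM in WT and at 35.3, 44.0 and 41.1 FPKM in PGRN KO. The WT libraries lay close together, the PGRN KO libraries were all lower and more spread, and the means were 53.9 ± 1.45 and 40.1 ± 4.40 FPKM (SD, n = 3 each). The log2 fold change was -0.42 ± 0.10 (SE, adjusted p = 0.0278). The call was kept in 11 of 18 alternatives and was lost without WT replicate 1 (adjusted p = 0.105), 2 (0.111) or 3 (0.0929), without PGRN KO replicate 4 (0.0685) and under 3 other settings, with adjusted p over all 18 from 0.00313 to 0.111.

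Xbp1 encodes the transcription factor that IRE1 activates by splicing and lies on chromosome 11 (5520659 to 5525893, plus strand). Its total mRNA was at 36.9, 40.8 and 37.8 FPKM in WT and at 42.3, 41.5 and 47.0 FPKM in PGRN KO. The groups did not overlap, with PGRN KO higher, but the gap between the nearest libraries was small and the test was not passed (log2 fold change 0.18 ± 0.09 (SE), 95% interval -0.04 to 0.39, adjusted p = 0.198). Spliced and unspliced forms are not separated in gene-level values, so the activity of XBP1 was not measured. The values of Xbp1 were thus all above WT, and those of its known target Dnajb9 all below.

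Atf4, the transcription factor at the centre of the integrated stress response, lies on chromosome 15 (80255184 to 80257541, plus strand). It was at 267, 275 and 253 FPKM in WT and at 192, 200 and 248 FPKM in PGRN KO. Of these, replicates 4 and 5 were far below WT, replicate 6 came close to the lowest WT library, and the difference did not pass the test (log2 fold change -0.32 ± 0.12 (SE), 95% interval -0.61 to -0.03). The adjusted p was 0.0979. Without PGRN KO replicate 6 Atf4 passed, with a log2 fold change of -0.43 and an adjusted p of 0.00262. It did not pass without any 1 of the other libraries (adjusted p 0.172 to 0.259). In all, Atf4 passed in 5 of 18 alternatives. Among them, with all 6 libraries, were quantile normalization (adjusted p = 0.0186) and GC and length correction (adjusted p = 0.00521).

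Ddit3 encodes CHOP, a transcription factor downstream of ATF4 that is associated with cell death under lasting stress, on chromosome 10 (127290774 to 127296288, plus strand). It was at 25.8, 24.2 and 29.8 FPKM in WT and at 19.4, 20.5 and 27.9 FPKM in PGRN KO. Here replicate 6 lay inside the WT range and the other PGRN KO libraries below it. The log2 fold change was -0.24 ± 0.15 (SE, adjusted p = 0.291) over 6 libraries and -0.39 (adjusted p = 0.0187) without replicate 6. Ddit3 overlaps Mars on the opposite strand by 68 bases, and a shorter gene model with the same symbol was listed at 0 in all 6 libraries.

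Trib3, a pseudokinase that is induced by ATF4 and CHOP and restrains ATF4, lies on chromosome 2 (152337422 to 152344032, minus strand). It was at 31.02, 31.9 and 34.2 FPKM in WT and at 28.3, 28.3 and 41.4 FPKM in PGRN KO, so replicate 6 was the highest of all 6 libraries and replicates 4 and 5 the lowest. The mean of PGRN KO was 101% of WT and the log2 fold change -0.01 ± 0.16 (SE, 95% interval -0.38 to 0.36, adjusted p = 0.972). Its sign changed with the scaling and with the libraries, and without replicate 6 the gene passed the test (log2 fold change -0.19, adjusted p = 0.0437).

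Chac1 encodes an enzyme that degrades glutathione and is a known target of ATF4, on chromosome 2 (119351229 to 119354381, plus strand). It was at 35.2, 34.3 and 41.1 FPKM in WT and at 23.2, 27.8 and 27.9 FPKM in PGRN KO. All PGRN KO libraries were below all WT libraries, and unlike for Trib3, replicate 6 did not depart from replicate 5. The log2 fold change was -0.47 ± 0.12 (SE, adjusted p = 0.0278). It passed in 11 of 18 alternatives (adjusted p 0.00276 to 0.101) and was lost without WT replicate 1 (0.0909), 2 (0.0725) or 3 (0.101), without PGRN KO replicate 4 (0.0722) and under 3 other settings.

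**Figure D2:**
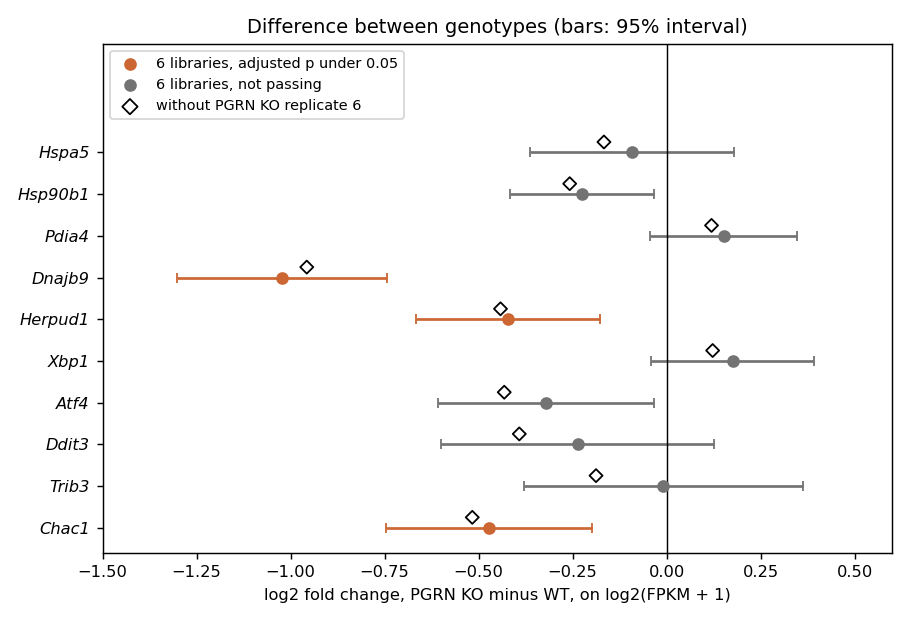
Log2 fold change (PGRN KO minus WT, on log2(FPKM + 1)) of each of the 10 genes, with filled points and 95% interval bars for all 6 libraries and open diamonds for the fit without PGRN KO replicate 6. The intervals of Dnajb9, Herpud1, Chac1, Hsp90b1 and Atf4 lie below 0, and only the first 3 of these passed after adjustment.

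Leaving out PGRN KO replicate 6 changed the count most among the single libraries. Without it, 7 of the 10 genes fell: Dnajb9, Herpud1, Chac1, Hsp90b1 (log2 fold change -0.26, adjusted p = 0.00836), Atf4, Ddit3 and Trib3. None rose, and Hspa5, Pdia4 and Xbp1 did not pass. All tested genes moved with this choice as well, with 25.1% called lower and 16.2% higher. The median log2 fold change of the 10 genes was then -0.33. Replicate 6 was above both other PGRN KO libraries for 8 of the 10 genes and for 47.6% of all tested genes. The 10 gene models are 1637 to 4229 bases long, beside a median of 3856 for tested genes. After each library was corrected for GC content and gene length, 4 of the 10 genes were lower with all libraries (all tested genes: 16.9%) and 7 without replicate 6 (all tested genes: 22%). Leaving out WT replicate 1, 2 or 3 cut the genes called lower among all tested genes from 1230 to 382, 443 or 486. Without PGRN KO replicate 4 or 5, 780 or 862 were called lower.

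The sensors and regulators that stand above these genes were given by a list of 14, of which 9 were tested. Of these 9, Ern1 and Atf6 fell and none rose, beside 13.8% lower and 10.4% higher over all tested genes. The list median log2 fold change was -0.06 and became 0.04 with the sum of fragments as library size. Ern1 was at 14.6, 13.9 and 15.3 FPKM in WT and at 10.0, 10.3 and 5.59 FPKM in PGRN KO macrophages (log2 fold change -0.74, adjusted p = 0.0428). Atf6 was at 11.01, 11.1 and 10.9 FPKM in WT and at 8.54, 8.41 and 5.86 FPKM in PGRN KO macrophages (log2 fold change -0.49, adjusted p = 0.0429). In both, replicate 6 was the lowest library and the groups did not overlap. Both have long gene models, of 8173 and 9231 bases. Without replicate 6 the log2 fold change was -0.48 for Ern1 (adjusted p = 0.00236) and -0.34 for Atf6 (adjusted p = 0.00416). Ern1 passed in 10 of 18 alternatives (adjusted p 0.00145 to 0.126) and Atf6 in 9 of 18 (0.00239 to 0.164). Neither passed on the TPM scale, with quantile normalization, or with the sum of fragments as library size. Both lost the call without WT replicate 1 (adjusted p = 0.126 and 0.134), 2 (0.114 and 0.132) or 3 (0.126 and 0.117) and without PGRN KO replicate 4 (0.0538 and 0.0523), and Atf6 also without replicate 5 (0.0549). Eif2ak3, which encodes PERK, was at 0.891 to 1.14 FPKM over the 6 libraries, below the filter on low values, and was not tested.

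The integrated stress response machinery (eIF2 kinases, eIF2, eIF2B and phosphatase subunits) had 15 of 16 genes tested, with 4 lower, 0 higher and a median of -0.16. Over all tested genes, 13.8% were lower and 10.4% higher. Of the kinases, none passed: Eif2ak1 (HRI) had a log2 fold change of -0.11 (adjusted p = 0.407), Eif2ak4 (GCN2) of -0.29 (adjusted p = 0.310) and Eif2ak2 (PKR, the interferon-inducible kinase that binds double-stranded RNA) of 0.38 (adjusted p = 0.129). Eif2ak2 was at 34.7, 38.5 and 30.9 FPKM in WT and at 54.2, 47.6 and 36.1 FPKM in PGRN KO. It rose without replicate 6 (adjusted p = 0.00921), whose level lay within the WT range. Without replicate 6 the log2 fold change of Eif2ak4 was -0.07 (adjusted p = 0.614) and that of Eif2ak1 -0.07 (adjusted p = 0.510).

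Ppp1r15a encodes GADD34, the subunit that directs the phosphatase to eIF2 and so ends the response, and is itself induced through ATF4. It was at 121, 142 and 125 FPKM in WT and at 82.1, 75.2 and 101 FPKM in PGRN KO, with no overlap (log2 fold change -0.59, adjusted p = 0.0214, 12 of 18 alternatives). Impact, an inhibitor of GCN2 activation, was at 14.9, 13.02 and 14.6 FPKM in WT and at 7.39, 8.003 and 5.02 FPKM in PGRN KO macrophages. Its log2 fold change was -0.98 (adjusted p = 0.00774), or -0.80 without replicate 6 (adjusted p = 0.0011), and it passed in all 18 alternatives. The other lower genes were Eif2s2, the beta subunit of eIF2 (log2 fold change -0.43, adjusted p = 0.0208), and Eif2a, a separate initiation factor (log2 fold change -0.30, adjusted p = 0.0440). Without any 1 library other than replicate 6, 1 gene of this list fell, and Ppp1r15a, Eif2s2 and Eif2a lost their calls. Under the same settings, 382 to 862 of all tested genes fell, beside 1230 with all libraries. Without replicate 6, 6 fell and Eif2ak2 rose (all tested genes: 25.1% lower and 16.2% higher).

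Other targets and partners of ATF4 and CHOP were described by a list of 31. Of these, 25 were tested, 8 fell (all tested genes: 13.8%) and 1 rose (all tested genes: 10.4%), with a median log2 fold change of -0.21. Without replicate 6 the list had 13 lower and 2 higher (all tested genes: 25.1% and 16.2%). Without WT replicate 1, 2 or 3 it had 2, 3 or 5 lower and 0 higher, and without PGRN KO replicate 4 it had 5 lower and 1 higher. Under these 4 settings, 382, 443, 486 and 780 of all tested genes were lower, beside 1230 with all libraries. The 3 scalings other than the deposited one gave 6 or 7 lower and 2 higher.

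Among these genes, Atf3, a transcription factor induced by stress and by Toll-like receptors, was at 1134, 1222 and 1113 FPKM in WT and at 703, 697 and 803 FPKM in PGRN KO macrophages (log2 fold change -0.66, adjusted p = 0.00818). Gdf15, a secreted stress cytokine, was at 468, 522 and 395 FPKM in WT and at 257, 254 and 345 FPKM in PGRN KO macrophages (log2 fold change -0.70, adjusted p = 0.0244). Slc7a5, which encodes the amino acid transporter LAT1, was at 55.9, 57.0 and 62.0 FPKM in WT and at 36.8, 37.6 and 35.2 FPKM in PGRN KO macrophages (log2 fold change -0.66, adjusted p = 0.00372). In all of them the PGRN KO libraries lay below the WT libraries without overlap.

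Rgs2, a regulator of G protein signalling that is also known to bind eIF2B, was at 9.71, 8.28 and 12.1 FPKM in WT and at 2.52, 3.32 and 3.56 FPKM in PGRN KO, 31.3% of the WT mean (log2 fold change -1.41, adjusted p = 0.00242). Rgs2 and Slc7a5 passed in all 18 alternatives, Atf3 in 17 (all but that without WT replicate 1, adjusted p = 0.0525) and Gdf15 in 13 (adjusted p 0.000365 to 0.0985). The other lower genes, named after their values were seen, were Atf5 (-0.58), Slc7a11 (-0.57, and -0.39 without replicate 6), Sesn2 (-0.43) and Asns (-0.40), all as log2 fold changes. The higher gene was Cth, an enzyme of cysteine synthesis, at 1.99, 1.65 and 1.91 FPKM in WT and at 2.73, 3.33 and 3.50 FPKM in PGRN KO macrophages (log2 fold change 0.55, adjusted p = 0.0140).

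The cytoplasmic aminoacyl-tRNA synthetases, of which several are known ATF4 targets, were listed with the tRNA exporter Xpot, and all 13 genes were tested, with 4 lower, 1 higher and a median of -0.19. Over all tested genes, 13.8% were lower and 10.4% higher. Nars (-0.50), Cars (-0.47), Tars (-0.40) and Yars (-0.38) fell, as log2 fold changes with adjusted p of 0.0125, 0.0322, 0.0154 and 0.0461. Nars, the most abundant of these 4, was at 210, 220 and 218 FPKM in WT and at 145, 148 and 167 FPKM in PGRN KO. Wars, the tryptophan enzyme, which is also induced by interferon gamma, went the other way, at 46.9, 49.5 and 46.0 FPKM in WT and 74.5, 65.3 and 81.1 FPKM in PGRN KO macrophages (log2 fold change 0.62, adjusted p = 0.0085). None of the genes of this list fell without WT replicate 1, 2 or 3, 1 fell without PGRN KO replicate 4, 2 without replicate 5 and 7 without replicate 6. Among all 8882 tested genes, 382, 443 and 486 fell without WT replicate 1, 2 and 3, beside 1230 with all libraries. Without PGRN KO replicate 4, 5 and 6, 780, 862 and 2230 fell. Wars lost its call without WT replicate 1 (adjusted p = 0.053).

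**Figure D3:**
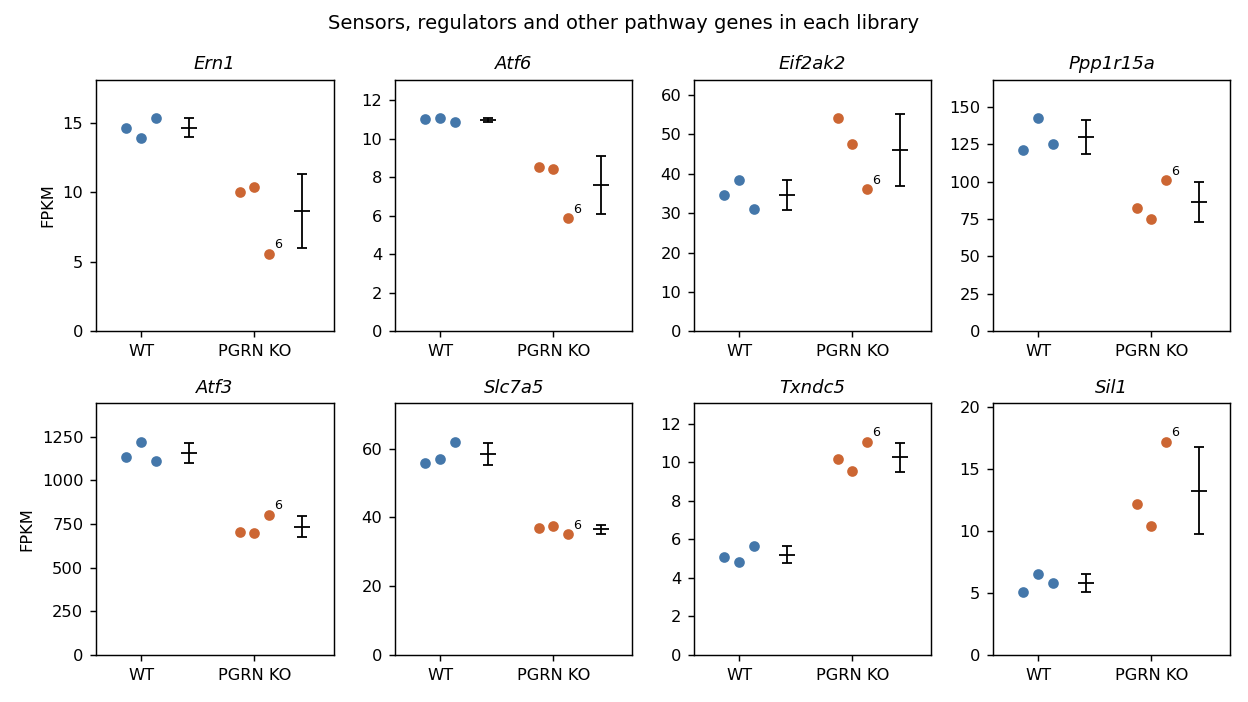
FPKM in each of the 6 libraries for genes of the pathway lists, with the mean and SD of each genotype and each panel on its own axis. Ern1, Atf6, Ppp1r15a, Atf3 and Slc7a5 lie lower and Txndc5 and Sil1 higher with PGRN knocked out, without overlap, and for Eif2ak2 replicate 6 falls among the WT points.

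The ER folding machinery beyond Hspa5, Hsp90b1 and Pdia4 went in both directions. Of 24 listed chaperones and folding enzymes, 23 were tested, 5 rose and 2 fell, with a median log2 fold change of 0.02. Over all tested genes, 10.4% rose and 13.8% fell. Sil1, the nucleotide exchange factor of BiP, was at 5.08, 6.50 and 5.79 FPKM in WT and at 12.2, 10.4 and 17.2 FPKM in PGRN KO macrophages (log2 fold change 1.05, adjusted p = 0.00912). Txndc5, a disulfide isomerase, was at 5.10, 4.802 and 5.68 FPKM in WT and at 10.2, 9.55 and 11.1 FPKM in PGRN KO macrophages (log2 fold change 0.86, adjusted p = 0.00247). Both passed in all 18 alternatives. Without replicate 6, the log2 fold change was 0.86 for Sil1 (adjusted p = 0.00259) and 0.81 for Txndc5 (adjusted p = 0.00115). Cnpy2 (0.96, adjusted p = 0.0203) and Hyou1, which encodes the BiP-related chaperone GRP170 (0.40, adjusted p = 0.0317), also rose on the log2 scale, and so did Dnajc10, named after its value was seen (0.37, adjusted p = 0.0208). Without replicate 6 the log2 fold change of Cnpy2 was 0.71 (adjusted p = 0.00385). Cnpy2 lost its call without WT replicate 1, 2 or 3 (adjusted p = 0.0811, 0.0766 and 0.0566). Hyou1 and Dnajc10 lost theirs without any 1 library other than replicate 6.

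The genes of this list that fell were P4hb and Pdia3. P4hb, the classical protein disulfide isomerase, was at 382, 400 and 373 FPKM in WT and at 260, 282 and 307 FPKM in PGRN KO macrophages (log2 fold change -0.44, adjusted p = 0.0221). Pdia3, the isomerase that works with calnexin and calreticulin on glycoproteins, was at 70.6, 73.8 and 65.9 FPKM in WT and at 48.3, 49.6 and 58.9 FPKM in PGRN KO macrophages (log2 fold change -0.42, adjusted p = 0.0314). Both passed in 12 of 18 alternatives. Without replicate 6, 5 genes of the list fell and 5 rose (all tested genes: 25.1% and 16.2%), and without any 1 of the other 5 libraries 0 fell and 2 or 3 rose. Without 1 of those 5, 382 to 862 of all tested genes fell and 331 to 739 rose, beside 1230 and 921 with all libraries.

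For ER-associated degradation, in which Herpud1 acts, 19 of 20 listed genes were tested, 3 rose and 3 fell, with a median of -0.16. These counts are near those of all tested genes, of which 10.4% rose and 13.8% fell. Ube2g2, a ubiquitin-conjugating enzyme of this pathway, was at 18.5, 20.2 and 19.6 FPKM in WT and at 11.2, 11.5 and 13.1 FPKM in PGRN KO macrophages (log2 fold change -0.66, adjusted p = 0.00505) and passed in all 18 alternatives. Ube2j1 (-0.31) and Ubxn4 (-0.28) fell with adjusted p of 0.0390 and 0.0474. The lectins Erlec1 and Os9, which recognise glycans on misfolded proteins, rose with log2 fold changes of 0.52 (adjusted p = 0.00893) and 0.56 (adjusted p = 0.0349), and Edem2 rose by 0.32 (adjusted p = 0.0407). The log2 fold change of Os9 without replicate 6 was 0.41 (adjusted p = 0.00703). Without replicate 6, 5 rose and 5 fell (all tested genes: 16.2% and 25.1%), and without WT replicate 1, 2 or 3 or PGRN KO replicate 4, 1 rose and 1 fell. Without 1 of those 4, 331 to 610 of all tested genes rose and 382 to 780 fell, beside 921 and 1230 with all libraries.

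Of the translocation and export genes, 19 of 20 were tested and Srprb, a subunit of the signal recognition particle receptor, was the 1 gene that rose (log2 fold change 0.34, adjusted p = 0.0373). None fell, the median was 0.09, Srprb lost its call without any 1 library other than replicate 6, 3 genes rose without replicate 6, and the 3 other scalings gave 3 or 5 genes higher and 0 lower. Over all tested genes, 10.4% rose and 13.8% fell with all libraries, and 16.2% and 25.1% without replicate 6.

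**Figure D4:**
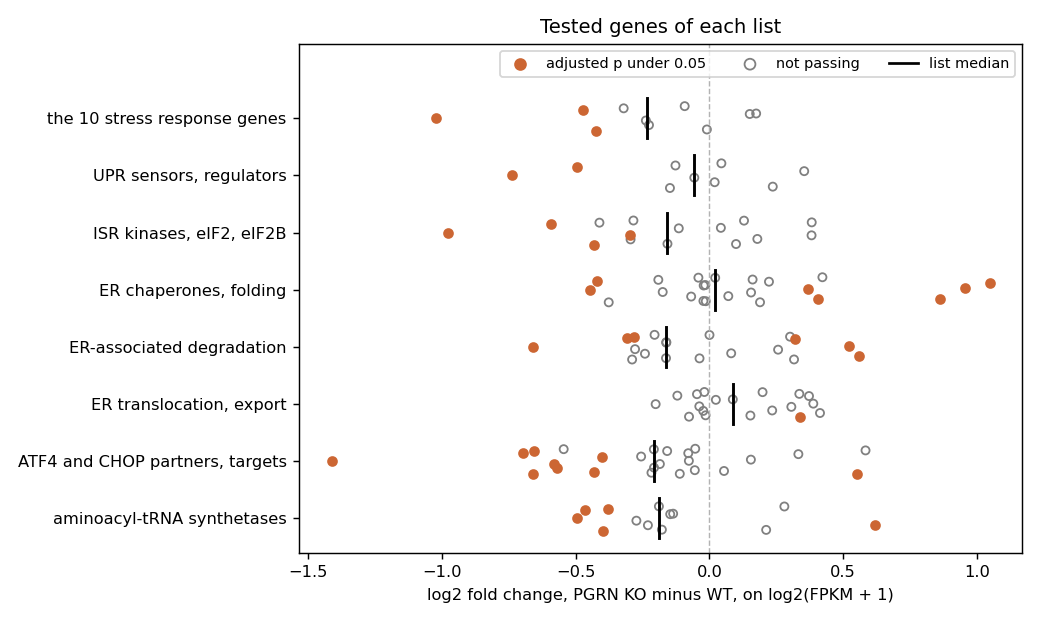
Log2 fold change (PGRN KO minus WT) of each tested gene of the 10 and of the 7 pathway lists, with filled points for an adjusted p under 0.05 and a vertical bar for the list median. The medians of the 10 genes (-0.23), the ATF4 and CHOP list (-0.21), the synthetases (-0.19) and the sensors (-0.06) lie below that of all tested genes (-0.03). So do those of ER-associated degradation (-0.16) and the integrated stress response machinery (-0.16). The folding list (0.02), with points on both sides, and the translocation list (0.09) lie above it. Without PGRN KO replicate 6 (not drawn), the medians were -0.33 for the 10 genes, -0.27 for the ATF4 and CHOP list and -0.19 for the synthetases. Those of the sensors, ER-associated degradation and the integrated stress response machinery were -0.08, -0.07 and -0.07, beside -0.04 for all tested genes.

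Summed levels of markers of other cell types differed between the genotypes as well, though few of these markers were high enough to be tested. The summed level of 10 B and plasma cell markers was 10.0 to 12.2 FPKM in WT and 33.6 to 49.6 FPKM in PGRN KO. Of these, 4 were tested and all 4 rose (Cd79a, Cd79b, Ighm and Igkc). The plasma cell marker Jchain did not exceed 0.110 FPKM in any library, and Tnfrsf17 was listed at 0 in all 6. Secretory cells of this lineage are rich in ER chaperones, and the part of these cells in the higher values of Sil1 or Txndc5 was not tested. The sum of 8 mast cell markers was 9.24 to 12.7 FPKM in WT and 17.9 to 23.8 FPKM in PGRN KO, and that of 8 T and NK cell markers 2.89 to 3.48 and 3.97 to 6.13 FPKM. Among the mast cell markers 3 were tested and 2 rose, and the 1 T and NK cell marker tested did not pass. The sum of 8 neutrophil markers went the other way (48.3 to 53.1 FPKM in WT, 21.3 to 26.2 FPKM in PGRN KO), nearly all of it S100a8, with Ly6g, Elane and Cxcr2 at 0. Only 1 neutrophil marker was tested, and it fell. Mesothelial and fibroblast markers summed to 0.585 to 0.710 FPKM in WT and 0.975 to 1.87 FPKM in PGRN KO, and none of them was tested. The part of any of these in the lower levels of Dnajb9, Herpud1 or Chac1 was not tested.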

How the data were processed

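RNA libraries from 6 samples were analysed. Per the submitters' processing notes, the tools include HISAT2 2.0.5, featureCounts 1.5.0-p3 and DESeq2 1.20.0, and the builds mm10 and GRCm38. The methods of the study name HISAT and HTSeq instead. The labels name peritoneal macrophages and the methods name bone marrow-derived macrophages with another ratio of fungus to cells. The labels were followed for the groups and the challenge. The sources used here do not say whether counting used strand. The authors deposited FPKM per gene and library. For 100% of the values above 0, FPKM times the deposited gene length was a whole number of fragments (tolerance 0.001 of a step), which gave the depth. The divisor used for FPKM was 0.925 to 1.09 times the counted fragments. Gene identifiers matched the GENCODE M21 annotation of GRCm38 for 99.9%, of which 98.3% had the same coordinates. In the table, 3 further columns of per-sample values match no sample and were not used.

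The deposited values are FPKM, and limma 3.58.1 in R 4.3.3 was used in place of the count model of the study. Genes whose mean FPKM was 1 or more were tested on log2(FPKM + 1), which understates fold changes of low genes. The fit had a mean-variance trend, two-sided tests and no covariates, with Benjamini-Hochberg adjustment over 8882 genes (threshold 0.05). Fragments recovered from the FPKM were modelled only in the voom alternative. The procedure was first tested on simulated data with the same dispersion for every gene and no library like PGRN KO replicate 6. That test cannot show how the fit behaves with such a library. The exact permutation test of a difference of means cannot go below p = 0.1 with 3 against 3. No source says that the replicates came from separate animals or cultures, so p-values measure the spread between these samples, which may be technical. No counting intervals are given: without molecular identifiers, reads need not be separate molecules.

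The 10 genes and the gene lists were chosen with earlier results of these data known, and lists are described by counts and medians without a test. Beyond the 10, the text names Grn, 7 sensors and regulators and, from each list, at most 4 genes per direction with the largest change among genes that passed with no overlap of the groups. Marker genes are named with their list, and genes named beyond this rule are marked in the text as named after their values were seen. The 18 alternatives cover scaling, filter, pseudocount, variance model, sample weights, voom, GC content and length, and each library left out. Counts over lists under these settings were added after seeing the data. Promoter windows were taken from RefSeq.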

Additional observations from a re-analysis of the deposited data

How the results depend on the processing

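The log2 fold changes of the 10 genes were recomputed under 18 alternatives, 180 values in all, of which 146 kept direction and side of the threshold, 13 newly passed, 14 no longer passed and 7 changed sign. The count of lower genes among the 10, 3 as reported, was 1 with no filter on low values, on the TPM scale or with library size set to the sum of fragments, 6 with sample quality weights (PGRN KO replicate 6 had a weight of 0.0899), 7 after GC and length correction without replicate 6, and 1 to 7 when each replicate was left out (1 without WT replicate 1, 2 or 3 or PGRN KO replicate 4, 7 without replicate 6). No alternative called any of the 10 higher. Hspa5 changed sign to 0.008 with the sum of fragments, and Trib3 to 0.044 on the TPM scale, 0.039 with quantile normalization, 0.088 with the sum of fragments, and -0.19 to 0.08 with replicates left out. The count over all tested genes was 921 higher and 1230 lower. The genes tested numbered 8882, except for 22912 with no filter and 4855 at a mean FPKM of at least 5. Higher genes numbered 603 of 22912 with no filter and 529 of 4855 at a mean FPKM of at least 5. They numbered 1757 with quality weights, 1434 after GC and length correction, and 1742 after that correction without replicate 6. With replicates left out, 331 to 1438 were higher. Lower genes numbered 763 of 22912 with no filter, beside 1 of the 10. They numbered 593 on the TPM scale (911 higher) and 695 with the sum of fragments (1179 higher). With weights 2468 were lower, after GC and length correction without replicate 6 1956, and with replicates left out 382 to 2230. Over all tested genes the median log2 fold change was -0.03 as deposited, 0.01 on the TPM scale and 0.05 with the sum of fragments, so the scaling moves the split of calls. Some settings differ in the number of tested genes, larger or smaller, or have fewer samples, and the cause of these changes was not tested. Of the values for Grn and the named list genes, 516 kept side and direction, 4 newly passed, 160 no longer passed and 0 changed sign. No paired analysis was possible because WT and PGRN KO share no replicate numbers.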
